A study of Mus musculus with 16 samples.

Results

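The 45 lysosomal and endosomal genes described here were chosen by name and looked up in the gene column of every count file, where all 45 were found among 48397 listed genes. They comprise 9 cathepsins, 14 other hydrolases and their cofactors, 6 membrane proteins including a channel, 2 transcriptional regulators, 5 subunits of the proton pump and 9 genes of the endosome and the retromer. All 45 passed the filter on low counts that left 17038 genes for testing. RNA was sequenced from 16 libraries, 4 independent cultures in each of 4 groups, of primary hippocampal neurons from CD1 mice taken at 0 to 2 days of age. All cultures received the mitotic inhibitor AraC at 3 days *in vitro* (DIV). Conditioned medium concentrated 10-fold was added at DIV 10 and DIV 13, and the RNA was collected at DIV 17. The medium of the apoE2, apoE3 and apoE4 groups came from immortalized astrocytes of mice whose *Apoe* gene had been replaced by human *APOE* ε2, ε3 or ε4, each line homozygous. The control medium came from immortalized *Apoe*-/- astrocytes, so that every group received astrocyte products and that of the control came from cells without apoE. Each astrocyte genotype was a cultured line, and differences between lines in anything other than apoE cannot be told apart from the isoform.

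Lysosomes are acidic vesicles in which proteins, lipids and sugars taken up by the cell are broken down. A proton-pumping ATPase acidifies the lumen, cathepsins and other hydrolases work at that low pH, and membrane proteins such as Lamp1 and Lamp2 protect the limiting membrane. Endosomes sort internalized cargo, including lipoprotein particles bound to their receptors, towards the lysosome or back to the surface, and the retromer carries receptors out of the endosome. Tfeb and Tfe3 are transcription factors that bind the CLEAR element, with the core CACGTG, in the promoters of many lysosomal genes.

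Promoter windows from 250 bases before to 50 bases after the annotated start (RefSeq, GRCm38.p6) were at hand for 38 of the 45 genes, all but *Ctsb*, *Asah1*, *Npc1*, *Atp6v1b2*, *Atp6v1h*, *Vps35* and *Bin1*. An exact CACGTG, which reads the same on both strands, stood in the window of 14 of them, 36.8%, against 8.09% of all 27025 genes with a window. The longer palindrome TCACGTGA, which contains the shorter letters, stood in 8 of the 38, 21.1%, against 1.12% of all genes. Among 103 further lysosomal and endosomal genes with a window, 26.2% held the shorter and 14.6% the longer motif. The windows below are shown because they carry the letters in genes from different roles, some of which differed with apoE3 and some of which did not. Each has 30 bases, written 5′ to 3′ on the strand of the gene, with the motif in capitals.

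*Ctsa*, chr2:164833749-164833778, plus strand: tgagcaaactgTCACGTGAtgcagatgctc
*Ctsd*, chr7:142387908-142387937, minus strand: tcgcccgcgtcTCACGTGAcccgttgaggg
*Ctsl*, chr13:64370739-64370768, minus strand: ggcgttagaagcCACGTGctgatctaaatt
*Lamp1*, chr8:13159088-13159117, plus strand: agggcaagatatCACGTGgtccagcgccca
*Lamp1*, chr8:13159134-13159163, plus strand: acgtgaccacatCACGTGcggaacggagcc
*Mcoln1*, chr8:3500462-3500491, plus strand: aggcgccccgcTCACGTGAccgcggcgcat
*Atp6v1a*, chr16:44139373-44139402, minus strand: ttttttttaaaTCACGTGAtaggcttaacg
*Atp6v0d1*, chr8:105566050-105566079, minus strand: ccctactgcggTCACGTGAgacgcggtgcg

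The *Ctsa* match shown began at position -13 and that of *Ctsd* at -99 relative to the gene's start. *Lamp1* held 4 matches, of which the outermost began at -61 and -15. *Ctsf*, *Glb1*, *Gaa*, *Naglu*, *Rab5a*, *Vps26a* and *Picalm* also held at least 1 match. A match of letters is a description of the window and not a site of binding.

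The libraries held 14087723 to 34248172 counts on genes, with a median of 22221832, and a further 38.4 to 73.7% of each library's total lay on no single gene. The gene *Lars2* took 0.359 to 15% of the counts on genes. ApoE2 library 4 and apoE4 library 2 stood apart, with 0.690 and 0.359% on *Lars2* against 2.83% or more elsewhere, and 38.4 and 38.6% on no single gene against 51.4% or more. Without apoE2 library 4 the fit described below with the replicate number as a block called 18 members with apoE3 in place of 12. Of these 18, 16 were higher, and the share of all genes called was 15.9% in place of 11.7%. Without apoE4 library 2 the fit called 10 members, beside 11% of all genes. Libraries that carried the same replicate number resembled each other, whichever medium they had received. Markers of neurons were present in every library, with a summed level of 3521 to 8721 CPM (counts scaled by the effective size of each library) over 10 genes. The 10 astrocyte markers summed to 583 to 6314 CPM and the 14 microglia markers to 12.7 to 93.5 CPM, and 13 of these 14 were above 0 in every library. In such bulk RNA, more cells of a type and more RNA per cell cannot be told apart.

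For a comparison of levels between genes, CPM were divided by the length of the exons in kilobases. *Psap*, which encodes the precursor of the saposins that assist sphingolipid breakdown, stood highest, at 543 CPM per kb over all libraries. Its group means were 531 ± 38.2 in the control, 506 ± 15.6 with apoE2, 568 ± 51.1 with apoE3 and 566 ± 49.2 with apoE4 (SD, n = 4 in each). It was followed by the proton pump subunit gene *Atp6v1a* at 156, *Ctsd* at 144, *Atp6v0d1* at 136 and *Atp6v1b2* at 127 CPM per kb, and the order among these 4 did not exceed their spread. The lowest were *Ctsc* at 0.850, *Ctsk* at 0.570 and *Tfeb* at 0.448 CPM per kb. The plot of levels per kb shows that the distance between genes was far larger than that between media.

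**Figure D1:**
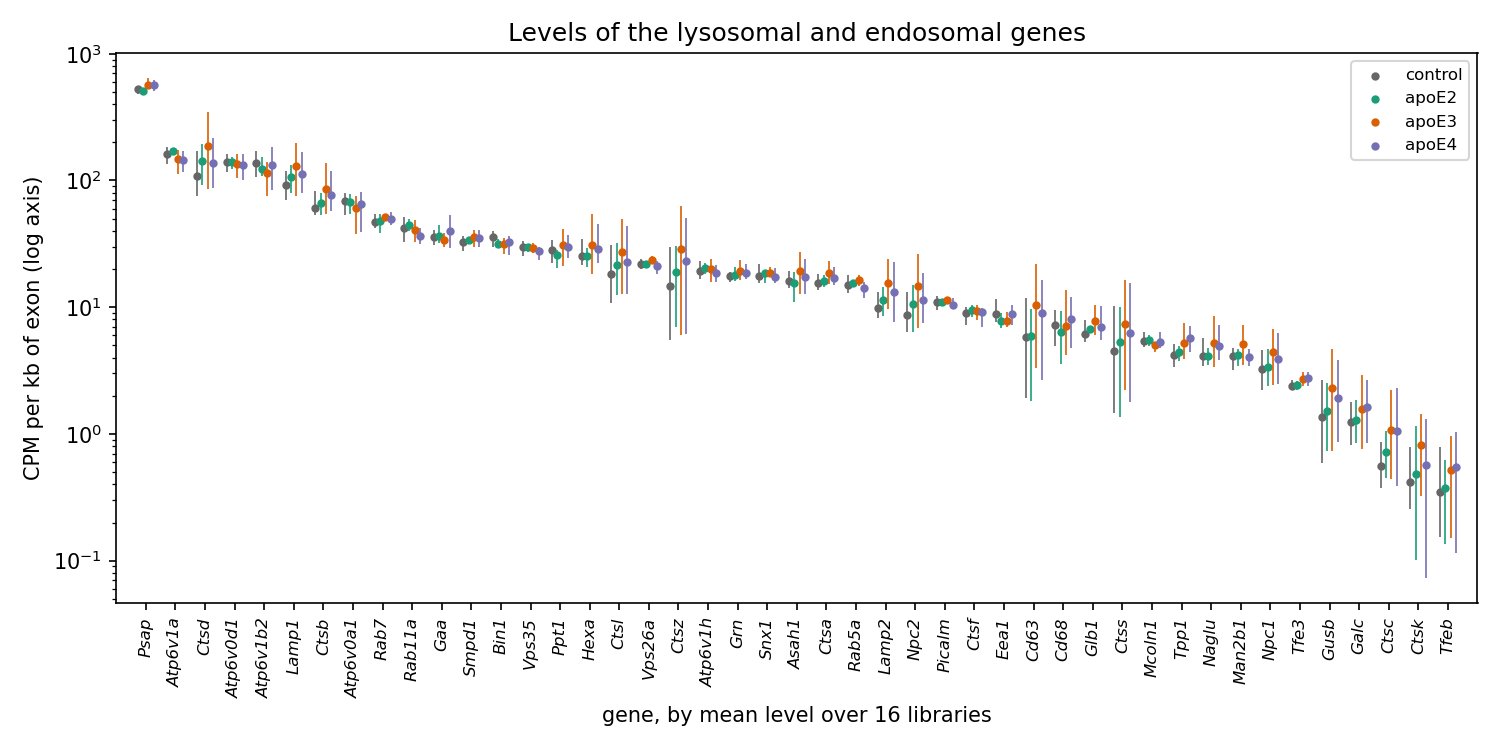
Level of each gene in CPM per kb of exon (log axis), ordered by the mean over 16 libraries. Points are the means of 4 libraries and lines run from the lowest to the highest library of the group. *Psap* stands highest at 543 CPM per kb and *Tfeb* lowest at 0.448, and the lines of the groups overlap for every gene except *Psap* between apoE3 and apoE2.

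The replicate number accounted for most of the variation of the genes. In the median gene 71.7% of the sum of squares of log2 CPM lay between replicate numbers and 11.5% between groups, against 56.1% and 14.4% over all genes tested. By role, the median share between numbers was 81.4% for the proton pump, 76.1% for the cathepsins, 68.7% for the membrane proteins, 68.2% for the other hydrolases, 64.3% for the endosome genes and 51.6% for the regulators. *Ctss* had the highest share of any member at 92.8%, and *Tfe3* the lowest at 24.4%. *Psap* and *Tfe3* were the only members with more variation between groups, 35.4% and 34.5%, than between numbers, 32.1% and 24.4%.

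The direction of this variation divided the list by role. Set against number 2, the library with number 4 had more RNA of 27 genes in all 4 groups, less RNA of 11 in all 4, and mixed signs for 7. Those with more included 8 of 9 cathepsins, 12 of 14 other hydrolases and 5 of 6 membrane proteins. All 5 proton pump subunits and 4 of 9 endosome genes had less. *Cd63* was 2.61, 2.41, 2.73 and 2.63 log2 units higher in number 4 in the control, apoE2, apoE3 and apoE4 groups, whereas *Atp6v0a1* was -0.57, -0.38, -0.99 and -1.05. The markers divided in the same way: in the control group the astrocyte sum was 2705 CPM in number 4 and 583 in number 2, the microglia sum 65.0 and 21.5, and the neuron sum 4921 and 7612. Whether the mixture of cells differed between numbers, and whether it accounts for these differences, was not tested.

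**Figure D2:**
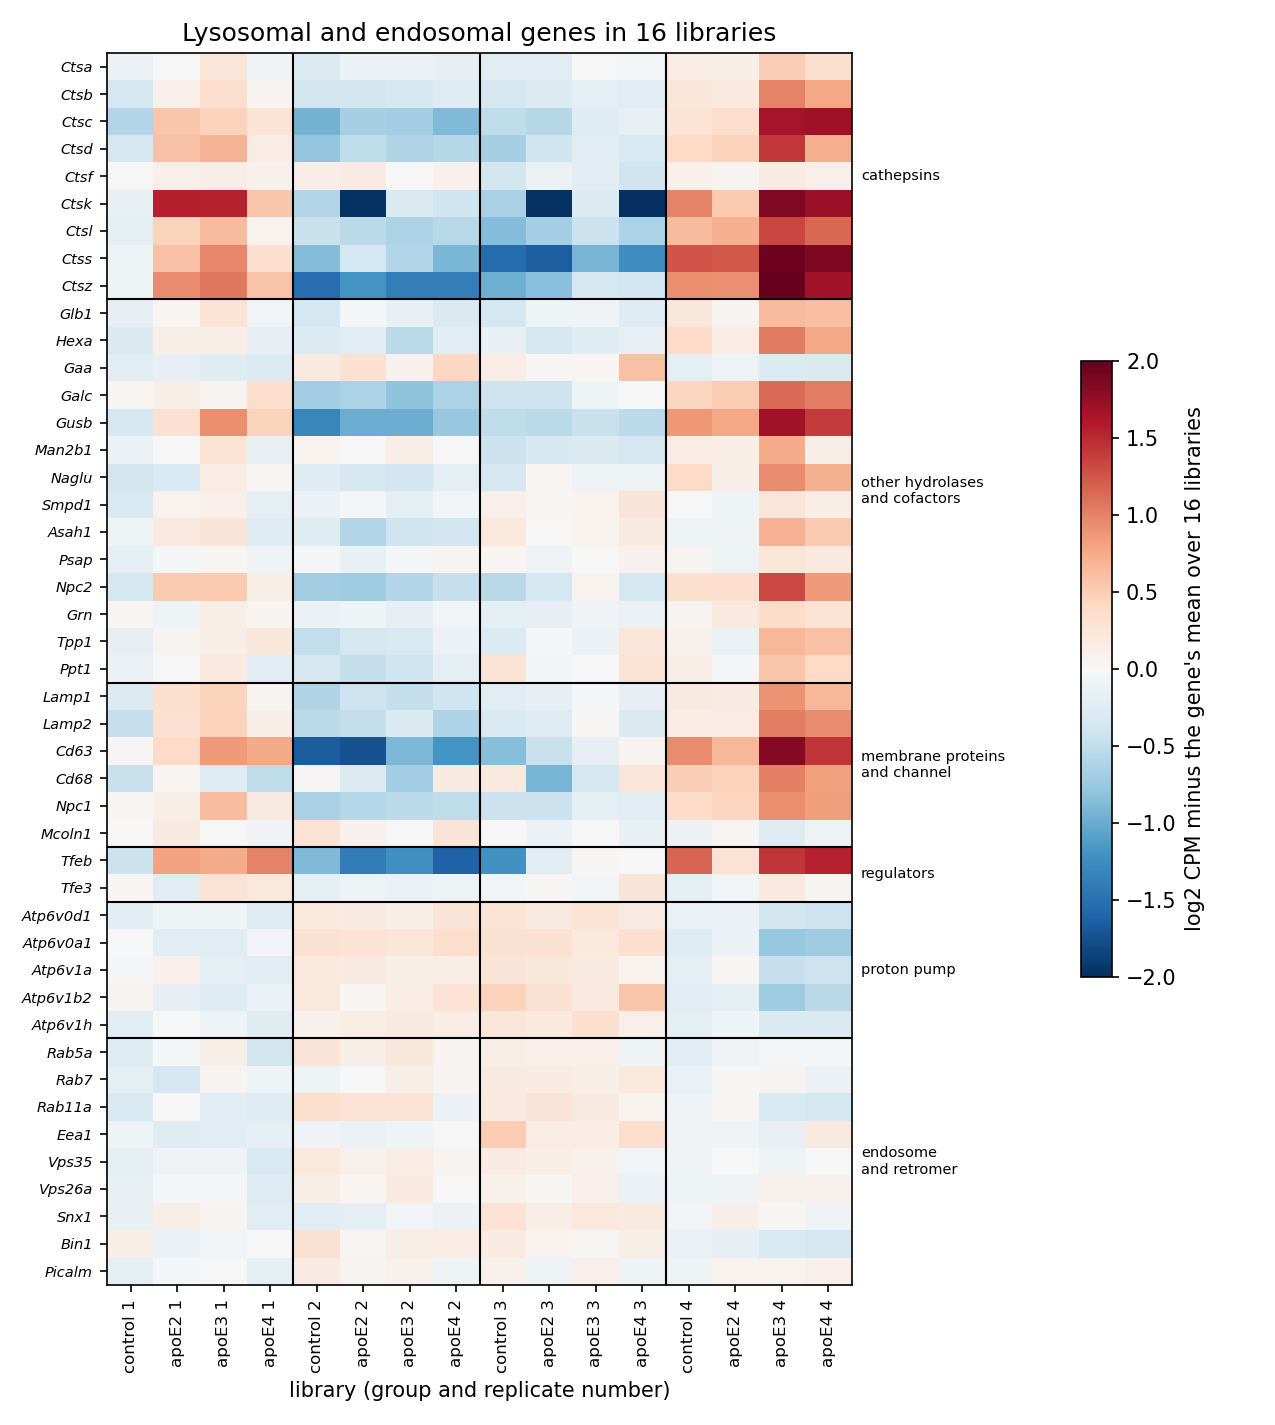
Each cell is the log2 CPM of a gene (rows, grouped by role) in a library (columns, ordered by replicate number and then by group) minus the mean of that gene over all 16 libraries, and colours end at 2 units in either direction. Of the cathepsins 8 of 9, and most hydrolases, are high in libraries numbered 4 and low in those numbered 2, while the 5 proton pump genes show the opposite colours.

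The first question was whether each apoE medium changed these genes relative to the control medium. Without regard to the replicate number, no member passed an adjusted p of 0.05 with apoE2, apoE3 or apoE4 (edgeR's quasi-likelihood test with Benjamini-Hochberg adjustment over all 17038 genes), and DESeq2 also called 0. The same threshold took 0, 1 and 33 genes in all, that is 0%, 0.00587% and 0.194%. At an unadjusted p under 0.05 the members numbered 0 with apoE2, 0 with apoE3 and 1 with apoE4, where the background was 2.79%, 6.43% and 3.30% of all genes. The 1 gene was *Tpp1*, which encodes a tripeptidyl peptidase, with a log2 fold change of 0.45 (SE 0.20, unadjusted p = 0.0422, adjusted p = 1.00 in edgeR). The study's own criterion, at least a 2-fold difference at an unadjusted p below 0.05, was met by 0 members in each comparison and by 0.722%, 1.96% and 1.15% of all genes. The median log2 fold change of the 45 genes came to 0.05 for apoE2, 0.18 for apoE3 and 0.14 for apoE4, against 0.01, 0.02 and 0.00 over all genes. The apoE4 median turned to -0.02 without apoE4 library 4. No member had values that lay wholly above or below those of the control in any of the 3 comparisons, which was so for 2.19%, 2.59% and 1.91% of all genes.

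Since the libraries with the same number varied together, the fit was also made with the number as a block, which compares each culture with the control culture of its own number. The common dispersion then fell from 0.132 to 0.0178. With apoE3, 12 of 45 genes were higher than in the control at an adjusted p under 0.05 and 0 were lower, while 7.95% of all genes were higher and 3.73% lower. Without the block the adjusted p-values of these 12 in edgeR lay between 0.788 and 0.846. With apoE4 2 genes were higher, against 3.18% of all genes, and with apoE2 0, against 1.17%. At an unadjusted p under 0.05 the blocked fit gave 18, 13 and 3 members for apoE3, apoE4 and apoE2, of which 16, 12 and 2 were higher. The background at that threshold was 27.5%, 16.6% and 13.3% of all genes, so the 3 members with apoE2 were fewer than that share of 45 would give.

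**Figure D3:**
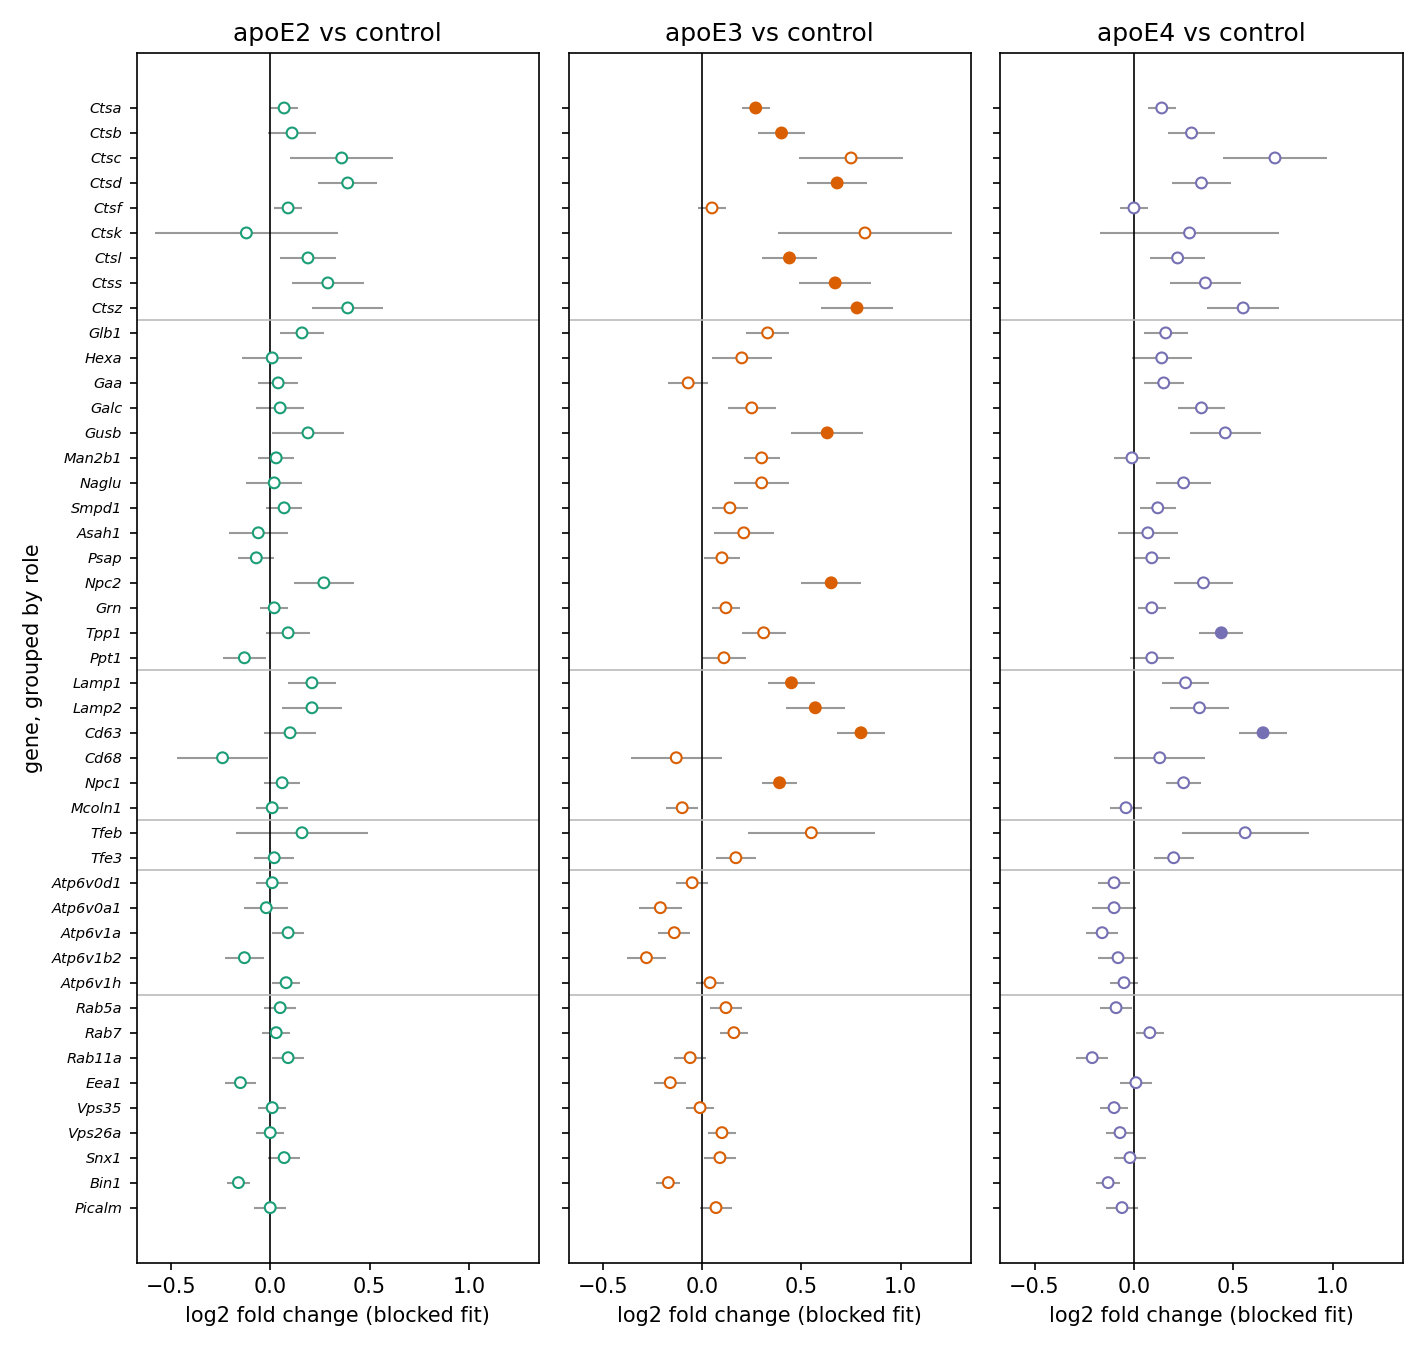
Log2 fold change against the control from the blocked fit for each of the 45 genes, grouped by role, with lines of 1 SE on either side. Filled points passed an adjusted p of 0.05: 12 with apoE3, 2 with apoE4 and 0 with apoE2. The cathepsins lie to the right of 0 with apoE3, and 4 of the 5 proton pump genes to the left.

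*Cd63*, a tetraspanin of late endosomes and exosomes, had the smallest p of the list. It lies on the plus strand at chr10:128900989-128912822 (mm10). It stood at 22.9, 7.08, 12.4 and 43.3 CPM in control libraries 1 to 4, at 29.4, 6.68, 16.4 and 35.4 with apoE2, at 40.6, 12.1, 20.0 and 80.4 with apoE3 and at 37.8, 9.82, 23.4 and 60.7 with apoE4. The groups overlapped, yet within every number both the apoE3 and the apoE4 culture stood above the control. In the blocked fit its log2 fold change was 0.80 with apoE3 (SE 0.12, adjusted p = 0.00134 in edgeR), 0.65 with apoE4 (SE 0.12, adjusted p = 0.00839) and 0.10 with apoE2 (SE 0.13, adjusted p = 0.816). Without the block the adjusted p was 0.812 with apoE3 and 1.00 with apoE4. Its call with apoE3 and with apoE4 was kept in each of 16 blocked fits that left out 1 library, in which the change ran from 0.69 to 0.90 with apoE3 and from 0.59 to 0.71 with apoE4. With apoE4 it was lost when all 4 libraries numbered 1 or all 4 numbered 3 were left out.

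Of the cathepsins, 6 of 9 were higher with apoE3 in the blocked fit, beside 7.95% of all genes. The median log2 fold change of the 9 was 0.67, against 0.01 over all genes. *Ctsd*, the aspartic protease of the list (chr7:142375911-142388038, minus strand, mm10), stood at 239, 177, 194 and 403 CPM in the control and at 491, 202, 262 and 817 with apoE3. Every apoE3 culture lay above the control of its number, and the largest gaps were in numbers 1 and 4. With apoE2 *Ctsd* stood at 460, 216, 231 and 422 CPM and with apoE4 at 339, 205, 247 and 506. Its change with apoE3 was 0.68 (SE 0.15, adjusted p = 0.00981), and that with apoE2 and apoE4 0.39 and 0.34, with adjusted p-values of 0.243 and 0.263 in edgeR. Of its exon length 34.4% lies under the same-strand gene *Gm49369*, so its counts are uncertain to that extent.

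*Ctsz*, which encodes the carboxypeptidase cathepsin Z, stood at 21.4, 7.88, 11.6 and 43.2 CPM in the control and at 47.4, 8.72, 17.9 and 90.5 with apoE3. With apoE2 it stood at 43.6, 9.96, 12.7 and 42.6 CPM, and with apoE4 at 33.9, 8.85, 17.4 and 72.4. Libraries numbered 2 were the lowest in every group, and the apoE3 culture exceeded the control in each number, by a log2 fold change of 0.78 in the blocked fit (SE 0.18, adjusted p = 0.0123 in edgeR). *Ctss*, whose product is best known from antigen-presenting cells, was lower by far, at 5.40, 3.18, 1.99 and 13.8 CPM in the control and 11.2, 3.85, 3.04 and 22.2 with apoE3. Its levels with apoE2 were 8.66, 4.54, 1.84 and 13.7 CPM and with apoE4 7.31, 3.07, 2.43 and 21.2. The change with apoE3 was 0.67 (SE 0.18, adjusted p = 0.0270), and its values moved with the number far more than with the medium.

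*Ctsa*, the protective protein that stabilizes β-galactosidase and neuraminidase, stood at 71.9, 64.8, 67.0 and 86.7 CPM in the control and at 92.0, 72.0, 77.4 and 110 with apoE3. It stood at 78.8, 72.2, 67.4 and 84.8 CPM with apoE2 and at 74.5, 70.0, 76.7 and 97.9 with apoE4. Its change with apoE3 was the smallest among the 12, 0.27 (SE 0.07, adjusted p = 0.0259 in edgeR), and 17.4% of its exon length lies under genes of the other strand. The cysteine proteases *Ctsb* and *Ctsl* rose by 0.40 and 0.44 with apoE3, with adjusted p-values of 0.0459 and 0.0485, and *Ctsl* was higher in 3 of 4 pairs. The exons of *Ctsl* lie to 26.8% under a gene of the other strand and those of *Ctsb* to 12.8%, and whether reads were counted by strand is not given in the sources used here. The other 3 cathepsins did not pass in edgeR with the block, although DESeq2 with the block called *Ctsc*: *Ctsc* at 0.75 (SE 0.26, adjusted p = 0.0743), *Ctsk* at 0.82 (SE 0.44, adjusted p = 0.245) and *Ctsf* at 0.05 (SE 0.07, adjusted p = 0.692).

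Of the other hydrolases and cofactors, 2 of 14 were higher with apoE3 in the blocked fit, beside 7.95% of all genes. A positive value was found for 13 of 14, and for 8901 of all 17038 genes. *Npc2*, the soluble cholesterol carrier of the lysosome, stood at 44.6, 34.9, 38.7 and 71.1 CPM in the control, 81.1, 34.5, 44.6 and 71.6 with apoE2, 81.4, 37.6, 59.4 and 142 with apoE3 and 61.4, 41.0, 44.2 and 102 with apoE4. Its change with apoE3 was 0.65 (SE 0.15, adjusted p = 0.0121 in edgeR), in 4 of 4 pairs. *Gusb*, the β-glucuronidase gene, stood at 5.27, 2.69, 4.67 and 12.2 CPM in the control and at 12.7, 3.36, 4.87 and 21.3 with apoE3, where the change was 0.63 (SE 0.18, adjusted p = 0.0313). With apoE2 *Gusb* stood at 8.24, 3.36, 4.59 and 11.4 CPM and with apoE4 at 9.07, 3.93, 4.65 and 17.5. Numbers 1 and 4 thus showed nearly all of the difference, and in numbers 2 and 3 the apoE3 value lay within 1 CPM of the control.

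*Tpp1* (chr7:105744811-105752235, minus strand, mm10) was the second gene higher with apoE4. It stood at 22.1, 17.5, 20.4 and 26.3 CPM in the control, at 25.5, 19.4, 24.0 and 22.4 with apoE2, at 26.9, 20.0, 22.8 and 38.9 with apoE3 and at 28.9, 22.7, 29.2 and 36.8 with apoE4. All 4 apoE4 cultures were above the control of their number, by 0.44 log2 units in the blocked fit (SE 0.11, adjusted p = 0.0427 in edgeR). The change with apoE3 was 0.31 (SE 0.11, adjusted p = 0.0881). The apoE4 call of *Tpp1* was lost in 11 of the 16 blocked fits without 1 library, including each that left out a control or an apoE4 library, although the change stayed between 0.41 and 0.47. *Psap* stood at 1308, 1459, 1524 and 1537 CPM in the control, 1442, 1337, 1385 and 1389 with apoE2, 1532, 1454, 1487 and 1764 with apoE3 and 1382, 1540, 1583 and 1709 with apoE4, with blocked changes of -0.07, 0.10 and 0.09. The remaining 10 hydrolases and cofactors (*Glb1*, *Hexa*, *Gaa*, *Galc*, *Man2b1*, *Naglu*, *Smpd1*, *Asah1*, *Grn* and *Ppt1*) were not called against the control in edgeR with or without the block, although DESeq2 with the block called *Man2b1* with apoE3. Their changes with apoE3 ran from -0.07 for *Gaa* to 0.33 for *Glb1*.

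Of the 6 membrane proteins, 4 were higher with apoE3 in the blocked fit, beside 7.95% of all genes: *Cd63*, *Lamp1*, *Lamp2* and *Npc1*. *Lamp1* stood at 234, 186, 241 and 318 CPM in the control and at 385, 203, 277 and 524 with apoE3, and *Lamp2* at 82.0, 78.4, 90.6 and 125 and at 155, 91.8, 114 and 229. With apoE2 *Lamp1* stood at 351, 212, 250 and 316 CPM and *Lamp2* at 138, 80.9, 94.0 and 125, and with apoE4 at 291, 213, 251 and 445 and at 123, 73.5, 92.3 and 217. Their changes with apoE3 were 0.45 (SE 0.12, adjusted p = 0.0288 in edgeR) and 0.57 (SE 0.15, adjusted p = 0.0233), both in 4 of 4 pairs. *Npc1*, the membrane partner of Npc2 in cholesterol export, stood at 40.2, 25.2, 29.4 and 51.6 CPM in the control, 43.2, 26.8, 29.6 and 53.3 with apoE2, 61.0, 27.5, 35.0 and 75.6 with apoE3 and 44.8, 28.0, 34.0 and 70.6 with apoE4. Its change with apoE3 was 0.39 (SE 0.09, adjusted p = 0.0137). The other two membrane genes did not pass and had negative values, -0.13 (SE 0.23) for the macrophage-associated *Cd68* and -0.10 (SE 0.08) for the calcium channel gene *Mcoln1*.

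**Figure D4:**
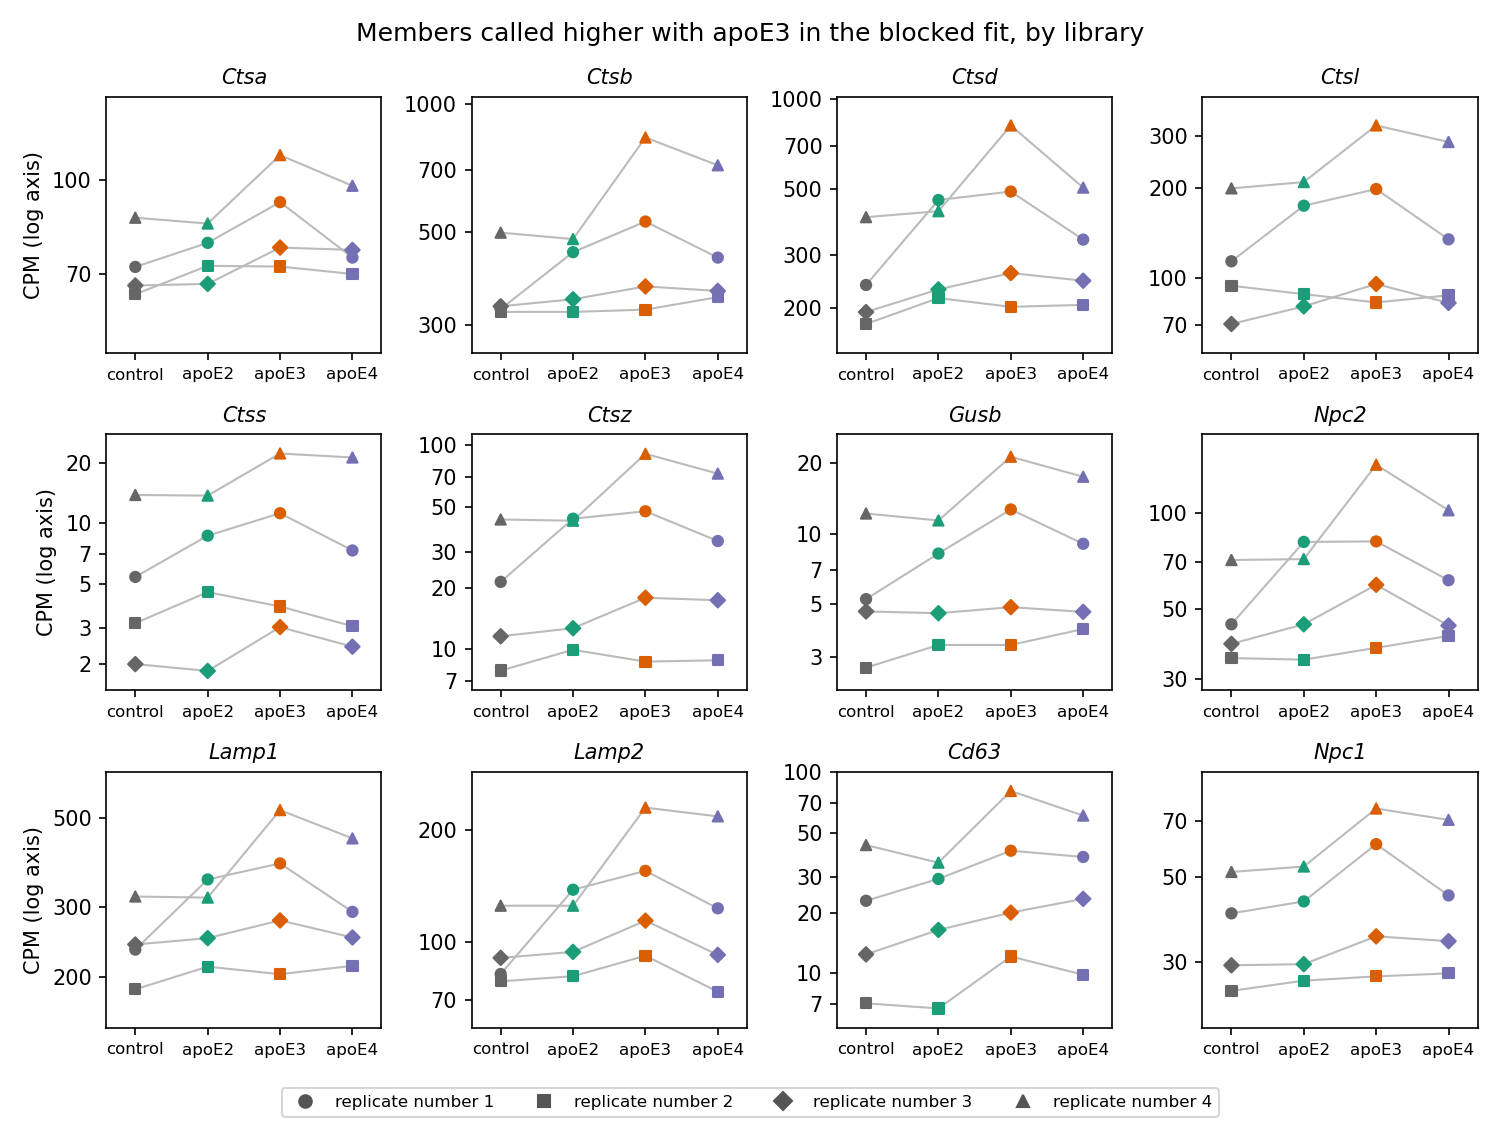
CPM (log axis) of the 12 genes that were higher with apoE3 in the blocked fit, in each library. Grey lines join libraries of 1 replicate number, marked by shape, and colours mark the group. The lines rise from control to apoE3 in all 4 numbers for every gene except *Ctsl*, which falls in number 2 from 94.4 to 83.0 CPM. They lie far apart for some genes, such as *Cd63*, but not for all. *Ctsb* stood at 328, 323 and 333 CPM in control libraries 1 to 3.

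Neither regulator was called. *Tfeb* stood at 1.50, 1.09, 0.872 and 4.50 CPM in the control, 3.52, 0.763, 1.72 and 2.46 with apoE2, 3.35, 0.860, 2.05 and 5.44 with apoE3 and 3.99, 0.655, 1.99 and 5.85 with apoE4. In number 2 its level was lower than in the control with all 3 isoforms. Its blocked changes were 0.16, 0.55 and 0.56 with SEs of 0.33, 0.32 and 0.32. *Tfe3* was steadier, at 24.5, 21.0, 23.0 and 20.7 CPM in the control, 20.6, 22.3, 24.2 and 22.9 with apoE2, 28.7, 22.0, 23.0 and 27.3 with apoE3 and 27.6, 22.1, 28.6 and 24.8 with apoE4. Its blocked changes were 0.02, 0.17 and 0.20 with an SE of 0.10 each, and the adjusted p-values in edgeR were 0.965, 0.271 and 0.311. Of the 12 genes called with apoE3, 10 had a promoter window and 4 of these held CACGTG (*Ctsa*, *Ctsd*, *Ctsl* and *Lamp1*), whereas 10 of the 28 other genes with a window held it.

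Of the proton pump genes, which acidify the lumen, none of the 5 was called in either direction against the control in edgeR, with or without the block. At an unadjusted p under 0.05 the blocked fit gave 1 of them with apoE3, where 27.5% of all genes passed, and 0 with apoE2 and apoE4. With apoE3 4 of 5 had negative values, with a median of -0.14. *Atp6v1b2*, a subunit of the catalytic head, stood at 680, 759, 908 and 563 CPM in the control, 583, 667, 807 and 573 with apoE2, 547, 724, 748 and 403 with apoE3 and 607, 801, 966 and 449 with apoE4. It was below the control in each number with apoE3, by -0.28 log2 units (SE 0.10, adjusted p = 0.0833 in edgeR), and it was called by DESeq2 with the block and by edgeR with the block when apoE2 library 4 was left out. *Atp6v1a* stood at 911, 1078, 1112 and 813 CPM in the control, 1004, 1064, 1098 and 952 with apoE2, 825, 1015, 1056 and 680 with apoE3 and 806, 1026, 976 and 703 with apoE4. It too lay below the control in every number with apoE3 and with apoE4, by -0.14 (SE 0.08, adjusted p = 0.312) and -0.16 (SE 0.08, adjusted p = 0.361). *Atp6v0d1*, of the membrane sector, stood at 208, 279, 290 and 220 CPM in the control, 228, 274, 274 and 221 with apoE2, 226, 262, 291 and 186 with apoE3 and 201, 287, 271 and 181 with apoE4, and its values were not ordered by group. The changes of *Atp6v0a1* and *Atp6v1h* with apoE3 were -0.21 (SE 0.11) and 0.04 (SE 0.07).

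Of the 9 endosome and retromer genes none was called against the control in edgeR with or without the block, and their blocked changes with apoE3 ran from -0.17 to 0.16. At an unadjusted p under 0.05 the blocked fit gave 1 of the 9 with each isoform, which does not exceed the 13.3%, 27.5% and 16.6% of all genes that passed with apoE2, apoE3 and apoE4. It was *Bin1*, a gene of the amphiphysin family at a locus known from Alzheimer's disease genetics, with apoE2 and apoE3. *Bin1* stood below the control of its number in 4 of 4 pairs with each isoform, as did 9.73%, 16% and 11.3% of all genes with apoE2, apoE3 and apoE4, comparisons that share the same control libraries. It had changes of -0.16 (SE 0.06, adjusted p = 0.276), -0.17 (SE 0.06, adjusted p = 0.0937) and -0.13 (SE 0.06, adjusted p = 0.324) for apoE2, apoE3 and apoE4. It was called lower with apoE3 by DESeq2 with the block and by edgeR with the block when apoE2 library 4 was left out. With apoE4 it was *Rab11a*, the GTPase of recycling endosomes, at -0.21 (SE 0.08, adjusted p = 0.195). The early endosome gene *Eea1* was at -0.15, -0.16 and 0.01 with the 3 isoforms. The retromer genes *Vps35* and *Vps26a*, the sorting nexin *Snx1*, the clathrin adaptor *Picalm* and the GTPases *Rab5a* and *Rab7* had changes between -0.10 and 0.16.

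Read by replicate number, the apoE3 difference was uneven. The median log2 ratio of the 45 genes to the control culture was 0.32 in number 1, -0.02 in number 2, 0.06 in number 3 and 0.40 in number 4. For the cathepsins it was 1.04, 0.15, 0.37 and 0.75, and for the proton pump -0.14, -0.07, -0.07 and -0.26. With apoE4 the medians of the 45 genes were 0.09, 0.06, 0.05 and 0.26, and with apoE2 0.20, -0.02, -0.02 and 0.01. In all 4 numbers 18 of 45 genes were higher with apoE3, beside 18.6% of all genes, 19 were higher with apoE4, beside 14.9%, and 3 with apoE2, beside 11.6%. With apoE3 6 were lower in all 4 numbers, beside 16% of all genes. The count of 12 calls depended on single libraries: it was 1 without control library 1, 4 without control library 4, 4 without apoE3 library 1 and 2 without apoE3 library 4. Calls over all genes also dropped in these fits, from 11.7% in either direction to 4.29%, 6.71%, 5.17% and 5.36%. Leaving out all 4 libraries of number 1, 2, 3 or 4 gave 1, 12, 3 and 5 members, beside 2.41%, 11.3%, 4.62% and 8.54% of all genes. The genes that kept their call most often were *Cd63* in 16 of 16 fits without 1 library, *Ctsd* in 15, and *Ctsz* and *Npc2* in 14 each, while *Ctsb* and *Ctsl* kept it in 5.

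Markers of glia moved with the same comparison. The astrocyte sum was 1455, 583, 1487 and 2705 CPM in the control, 2812, 831, 2041 and 2639 with apoE2, 4050, 874, 2520 and 6314 with apoE3 and 2759, 774, 2411 and 4985 with apoE4. It exceeded the control in 4 of 4 numbers with apoE3 and apoE4 and in 3 of 4 with apoE2. In the blocked fit 9 of 10 astrocyte markers were higher with apoE3, 4 with apoE4 and 0 with apoE2. For these and the following marker lists the shares of all genes called higher were 7.95% with apoE3, 3.18% with apoE4 and 1.17% with apoE2, and 3.73% were lower with apoE3. The astrocyte intermediate filament gene *Gfap* had a change of 1.40 with apoE3 (adjusted p = 5.44e-04 in edgeR), larger than that of any of the 45 genes. Of the oligodendrocyte lineage markers 4 of 9 and of the mural and fibroblast markers 2 of 8 were higher with apoE3 in the blocked fit, and 1 of each list with apoE4. Of 3 endothelial markers tested 1 was higher with apoE3 and 1 with apoE4, in both cases *Flt1*. The sum of 6 genes of dividing cells was 6.75 to 17.4 CPM in the control, 19.2 to 28.4 with apoE2, 26.3 to 40.4 with apoE3 and 11.9 to 29.1 with apoE4. In the blocked fit 1 of these 6 passed with apoE3, 1 with apoE2 and 0 with apoE4, the 1 being *Top2a*, at 2.18 to 7.43 CPM in the control and 15.8 to 35.0 with apoE3. None of the 14 microglia markers passed, and their sum was 23.3, 21.5, 12.7 and 65.0 CPM in the control and 32.5, 20.0, 16.5 and 93.5 with apoE3. The microglial marker *Tmem119* was at 0 in control library 3 and did not exceed 1.11 CPM anywhere. Of 10 neuron markers 1 was higher and 2 were lower with apoE3. The part of the glial markers in the differences of the lysosomal genes was not tested.

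**Figure D5:**
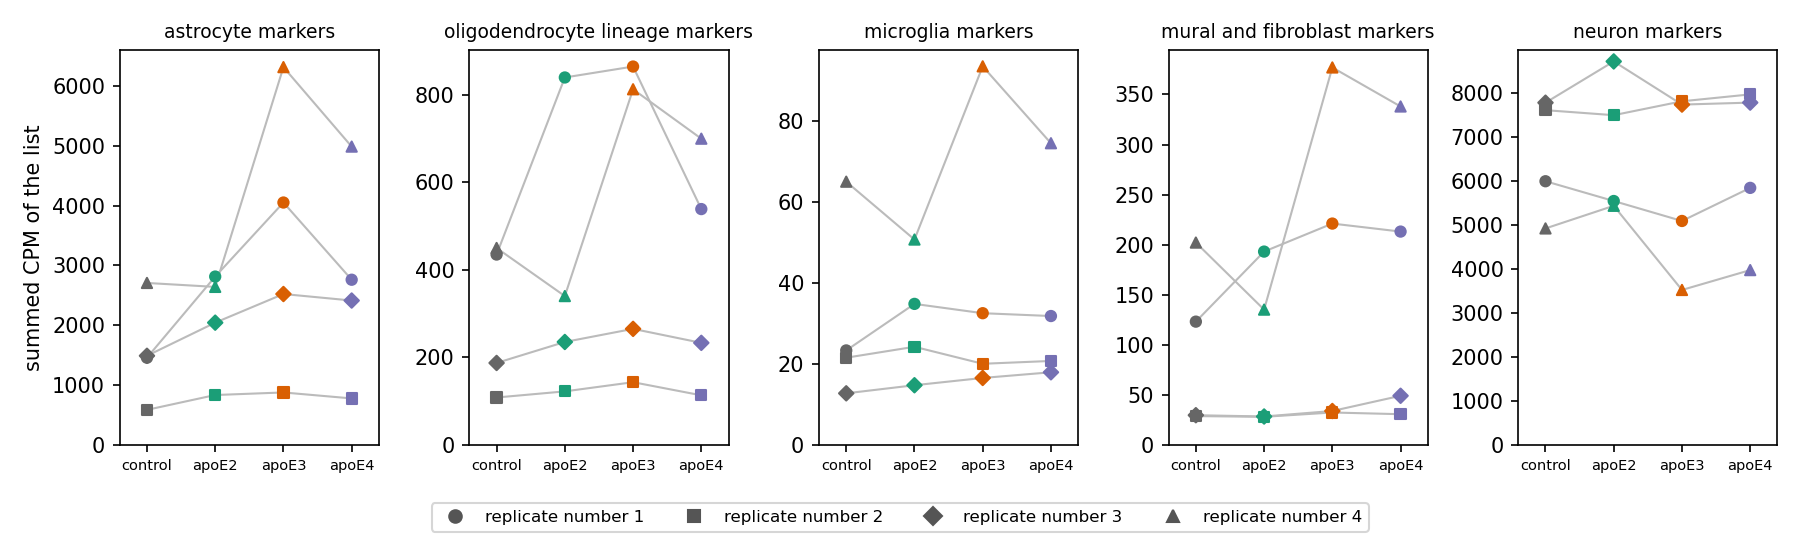
Summed CPM of 5 lists of cell type markers in each library, with axes that start at 0. Grey lines join libraries of 1 replicate number, marked by shape. The astrocyte sum is highest in apoE3 library 4 at 6314 CPM, where the neuron sum is lowest at 3521 CPM.

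The second question was whether the isoforms differed from each other. Without the block no member passed an adjusted p of 0.05 in edgeR or in DESeq2 between apoE4 and apoE3, apoE4 and apoE2 or apoE3 and apoE2, where 0.147%, 0.252% and 0% of all genes did. None passed an unadjusted p of 0.05 in edgeR either, against 4.70%, 5.34% and 2.28% of all genes, and none met the study's criterion, against 1.25%, 1.30% and 0.687%. The median log2 fold changes of the 45 genes were -0.10, 0.10 and 0.21, of which the first turned to 0.05 without apoE3 library 4 and the second to -0.06 without apoE4 library 4. The third was 0.04 without apoE3 library 4, and the medians by number were 0.06, 0.00, 0.09 and 0.50. With the block, edgeR called 0 members between apoE4 and apoE3 (1.77% of all genes in either direction), 2 between apoE4 and apoE2 (4.44%) and 1 between apoE3 and apoE2 (1.31%). These counts were near what those shares of 45 genes would give. *Psap* was the 1 gene whose values did not overlap, all 4 apoE3 libraries being above all 4 apoE2 libraries, with a blocked change of 0.16 (SE 0.09, adjusted p = 0.380). Values that did not overlap were found for 2.45%, 3.40% and 1.66% of all genes in these comparisons.

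*Cd63* was higher with apoE4 than with apoE2 by 0.55 (SE 0.12, adjusted p = 0.0192 in edgeR with the block) and higher with apoE3 than with apoE2 by 0.70 (SE 0.12, adjusted p = 0.0166), in 4 of 4 pairs each time. Its call was lost in 4 and in 2 of 16 fits without 1 library, namely apoE2 library 2 or 4 in both comparisons and apoE4 library 1 or 3 in the first. *Rab11a* stood at 97.8, 154, 139 and 115 CPM in the control, 120, 148, 144 and 124 with apoE2, 103, 147, 137 and 98.3 with apoE3 and 101, 111, 127 and 94.6 with apoE4. Each apoE4 culture lay below the apoE2 culture of its number, and the blocked change was -0.31 (SE 0.08, adjusted p = 0.0433). This call was lost in 11 of 16 fits without 1 library, in which the change ran from -0.36 to -0.24. Between apoE4 and apoE3 the difference in *Cd63* was -0.15 (SE 0.12, adjusted p = 0.568). That of *Ctsd* was -0.34 (SE 0.15, adjusted p = 0.279), and all 9 cathepsins had negative values, so the larger number of calls with apoE3 than with apoE4 was not matched by a difference between these isoforms that passed the test.

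A further list of 131 lysosomal and endosomal genes written from general knowledge held 125 that were tested. Without the block 0 were called against the control in edgeR and in DESeq2, and 1, 5 and 0 passed an unadjusted p of 0.05 with apoE2, apoE3 and apoE4, beside 2.79%, 6.43% and 3.30% of all genes. With the block 15 were higher and 1 lower with apoE3, 2 were higher with apoE4 and 2 with apoE2, where 7.95%, 3.18% and 1.17% of all genes were higher, so the counts with apoE4 and apoE2 lay near or under the background. By role, the 15 were 8 of 30 hydrolases and cofactors, 4 of 19 membrane proteins and transporters, 1 of 13 proton pump subunits, 1 of 36 endosome genes and 1 of 15 genes of lysosome signalling, and 0 of 12 genes of sorting and maturation. *Scarb2*, the receptor that delivers β-glucocerebrosidase, was higher with apoE3 by 0.57 (adjusted p = 0.00152 in edgeR with the block), *Ctsh* by 1.06 (0.00224), *Cd9* by 0.91 (0.00237), *Lgmn* by 0.41 (0.00576) and *Cd81* by 0.59 (0.00634). *Ctsh* was higher with all 3 isoforms, by 0.77 with apoE2 (0.0410) and 0.70 with apoE4 (0.0436), while *Cd81* was also higher with apoE2 (0.68, 0.0114) and *Cd9* with apoE4 (0.66, 0.0303). The lower gene, named after its value was seen, was *Ehd3*, of the recycling endosome, at -0.32 (0.00897). Between apoE4 and apoE3 the blocked fit called *Scarb2* alone, lower with apoE4 by -0.43 (0.0237), beside 1.77% of all genes. Between apoE4 and apoE2 it called 4 of the further genes, beside 4.44% of all genes: *Cd81*, *Vps29* and *Ppp3cb* were lower with apoE4, by -0.51, -0.35 and -0.36, and *Rptor* was higher by 0.33. It called 0 between apoE3 and apoE2, with 16 at an unadjusted p under 0.05, where 15.9% of all genes passed.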

How the data were processed

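The authors mapped the reads of ribosomal RNA-depleted libraries to mm10 with STAR and counted them per gene with HTSeq, and the deposited values are raw counts. Rows that name no gene, 38.4 to 73.7% of a library's total, entered neither library sizes nor tests. Groups and replicate numbers came from the labels. Counts were tested with edgeR 4.0.16 in R 4.3.3 (TMM scaling, filterByExpr keeping genes near 10 counts in 0.7 of a group and 15 in all, 1 coefficient per group, quasi-likelihood test, Benjamini-Hochberg adjustment within a comparison), after a test on simulated data. CPM are TMM-scaled. Exon lengths came from GENCODE M21 on the same build. The labels do not say what the replicate number marks, but deviations from the group means correlated by 0.362 to 0.831 between libraries of the same number, above 0.1 for every pair, so the number was taken as a pairing. Libraries of different numbers correlated by -0.736 to 0.569, and those of numbers 1 and 4 (0.129 to 0.569) and 2 and 3 (0.161 to 0.439) were also alike. Values in every library were given for the 12 called genes of smallest p, the 5 of highest level per kb (*Ctsd* is in both), *Tfeb* and *Tfe3*, and nonmembers were named as markers, as the first 5 called of the further list per comparison, or where a result turned on them. *Bin1*, *Ctsb*, *Ctsl* and others given by their changes follow the account of every member. The genes, the lists and the tests were chosen with earlier results of these data known. Alternatives were DESeq2 1.42.0, its size factors, other filters, the test of the study's methods, fits of 2 groups, fits without features over 1% of a library, the block, and each library left out. A protein comparison was not run.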

Additional observations from a re-analysis of the deposited data

Results flagged for a closer look

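No group of 4 libraries held a value that stood apart by the test used here (Dixon's ratio of the gap to the whole range on CPM, at its usual critical value), among 72 groups of the 18 genes with values in every library. Chance alone marks about 1 in 20 groups.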

How the results depend on the processing

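All counts of members called without the block stayed at 0 with DESeq2 size factors, DESeq2, both other filters, the test of the study's methods, fits of only the 2 groups compared and fits without the most abundant features. The replicate block moved them to 12 with apoE3 and 2 with apoE4 against the control, beside 11.7% and 3.3% of all genes. Between apoE4 and apoE2 it gave 2, beside 4.44%, and between apoE3 and apoE2 1, beside 1.31%. DESeq2 with the block, chosen after seeing the data, gave 16, 2, 3 and 3, beside 15.8%, 6.12%, 8.07% and 4.72% of all genes, and the 16 held all 12 of edgeR. The genes it added between isoforms were *Atp6v1a*, lower with apoE4 and with apoE3 than with apoE2, and *Npc1*, higher with apoE3 than with apoE2. The further genes called went from 0 to 2, 16 and 2 with the block for apoE2, apoE3 and apoE4, and to 2, 18 and 2 in DESeq2 with it. In blocked fits chosen after seeing the data, leaving out all 4 libraries numbered 1, 2, 3 or 4 gave 1, 12, 3 and 5 members with apoE3, and with apoE4 0, 1, 0 and 2, beside 0.808%, 2.4%, 1.11% and 3.04% of all genes. Leaving out single libraries with the block gave 1 to 18 members with apoE3, beside 4.29 to 15.9% of all genes. There were 9 in 1 fit, 10 in 6 fits, 12 in 2 and 13 in 2. These fits gave 1 to 3 members with apoE4, beside 1.29 to 5.82%, and 0 to 1 with apoE2, beside 0.334 to 4.97%. Between apoE4 and apoE2 they gave 0 to 3, beside 2.07 to 5.5%, and between apoE3 and apoE2 0 to 1, beside 0.322 to 1.58%. The count at the study's criterion with apoE3 was 0 to 2 without 1 library. The median change of the members ran from -0.02 to 0.19 with apoE4 without 1 library, the lowest being without apoE4 library 4, and from -0.21 to 0.05 between apoE4 and apoE3, the highest being without apoE3 library 4. The unblocked change of *Ctss* with apoE3 ran from -0.02 to 1.51 without 1 library, reversing only without apoE3 library 4. The cause was not tested.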
